A study of Arabidopsis thaliana with 31 samples.

Results

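Of the 31 libraries in the series, 24 came from cells of the quiescent center (QC) of the *Arabidopsis* root, and these are described here. They are 20 single QC cells and 4 aliquots of QC cells that had been pooled, lysed and split before amplification, and they were chosen by their labels alone. All 24 came from Col-0 plants with the *WOX5:GFP* reporter, labelled 6 DAS (the methods give a slightly younger age). The roots were digested with wall-degrading enzymes, fluorescent cells were picked by glass pipette, and the cDNA of each sample was amplified separately. The methods give 4 cells for the pool, so that each aliquot is a mean over the same 4 cells. The labels name no plant or batch for a cell, and the 4 aliquots are 1 pool. QC cells were collected in 4 batches by the methods, but which cell belongs to which batch is not given in the sources used here. Each group is therefore 1 sample, and differences are given without a test. The 7 stele cells of the series (*WOL:CRE-GR 35S:lox-CFP*, labelled 7 DAS and treated with dexamethasone, 3 taken at 0 h and 4 at 16 h after the tip was cut off) are used only for comparison.

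The QC is a small group of rarely dividing cells at the centre of the root stem cell niche, and it keeps the neighbouring stem cells from differentiating. Its identity depends on transcription factors such as the homeobox protein WOX5, the GRAS protein SCR and the AP2 proteins of the PLETHORA family. In a single cell many transcripts are present in few copies, and some are lost before amplification. Libraries split from 1 lysate share the same cells and differ only by such steps, whereas libraries of separate cells differ by these steps and by what each cell expressed. Within a single cell the 2 sources cannot be told apart.

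Values are given in FPM, the share of a gene in the reads of its library per 1000000. The spread of a gene is the standard deviation (SD) of log2(FPM + 1) over the libraries of a group, so that an SD of 1 is a typical deviation of 2-fold. A gene was called abundant where its median reached 100 FPM in both groups. It was called steady in aliquots at an SD of 0.5 or less, varying between cells at an SD of 2 or more, and steady in both where its SD was also 1 or less in the cells. Single QC cells had 12071810 to 115114702 reads and the aliquots 83718007 to 127775758. A median of 5858 genes was above 0 in the cells and 9893 in the aliquots.

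The libraries were not all alike. In 3 sets of cells every gene above 0 was also above 0 in the first cell of the set. The sets were QC cell 1 with 8 to 13, QC cell 2 with 3 to 7, and QC cell 14 with 19 and 20, and the 4 aliquots were nested in aliquot 1 in the same way. A gene missing from the first cell was thus listed at 0 in its whole set, so that a 0 there may reflect a filter on the set. Whether these sets are the batches of collection was not tested. QC cells 15 and 16, and 17 and 18, were nearly alike pairs. They had 14193636 and 72145275 reads, and 13734710 and 46616285 reads. The labels name them as separate cells, but whether they are was not tested, so that counts over 20 cells may count a pair more than once. With each pair averaged, the share of abundant genes with the larger SD in the cells was 98.3%. QC cells 3, 4 and 10 stood apart, with 953, 934 and 1048 genes at 100 FPM or more, where the other 17 cells had at least 1345 and the aliquots 2272 to 2357. Results are therefore also given within sets and without these 3 cells where that changes them.

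The label of the cells was checked first. *WOX5* (AT3G11260) was above 0 in all 20 single QC cells, with a lowest, median and highest value of 124, 835 and 3193 FPM, against 1651, 2074, 1246 and 1627 FPM in aliquots 1 to 4. The cells spanned the aliquots, and 16 of the 20 lay within 4-fold of the aliquot median. The 24 QC markers of the study's marker table summed to a median of 2217 FPM in the cells (147 to 11832) and 2403 FPM in the aliquots (2114 to 3552). The lowest sum was that of QC cell 3. Markers of the other 14 tissues numbered 336, of which 236 were at 0 in all 24 libraries and 19 had a median above 0 in the cells, against 57 in the aliquots. Their sum had a median of 1228 FPM in the cells (108 to 6124) and 1221 FPM in the aliquots (791 to 2078), but single lists differed. Columella markers summed to a median of 682 FPM in the cells (15.5 to 4896) and 257 FPM in the aliquots (207 to 618). The list named LRM summed to 53.3 FPM in the cells (0.135 to 1340.4) and 415 FPM in the aliquots (63.1 to 602). Their part in the results was not tested.

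Nearly every abundant gene was more variable between single QC cells than between aliquots. Of the 621 abundant genes, 609 had the larger SD in the cells (98.1%), with a median SD of 3.00 in the cells (quartiles 2.53 and 3.37) and 0.64 in the aliquots (0.38 and 1.06). The count was also 609 (98.1%) when the SD was taken within sets, where its median was 2.82. Without QC cells 3, 4 and 10 the median SD in the cells was 2.81, over 726 abundant genes. The sets were not equally variable. The median SD was 3.01 in the set of QC cell 1 and 3.12 in that of QC cell 2, but 1.97 among QC cells 14, 19 and 20 and 0.92 among QC cells 15 to 18, which hold the nearly alike pairs.

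**Figure D1:**
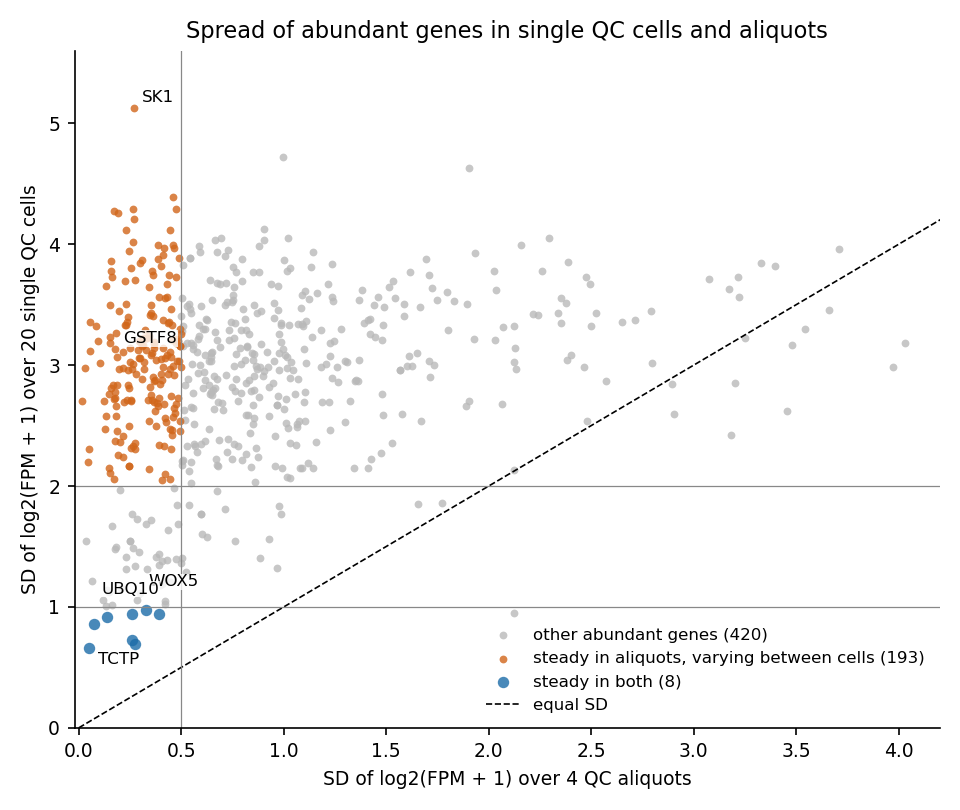
SD of log2(FPM + 1) over the 20 single QC cells (vertical axis) against that over the 4 aliquots (horizontal axis), 1 point for each of the 621 abundant genes. Grey lines mark the thresholds of 0.5, 1 and 2, and 609 points lie above the dashed line of equal SD.

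The gap depended on the level of a gene. For the 78 genes whose 2 group medians had a geometric mean of 1000 FPM or more, the median SD was 2.32 in single QC cells and 0.26 in aliquots. Between 100 and 1000 FPM it was 3.15 for single cells, against 0.77 for aliquots, over 800 genes. Below 10 FPM the median SDs were 2.89 in the cells and 2.29 in the aliquots over 2806 genes. Between 10 and 100 FPM the median SDs were 3.23 in the cells and 1.64 in the aliquots over 1790 genes. The aliquots thus became steadier with each step of level, whereas the median SD of the cells was below 2.89 only at 1000 FPM or more. In stele cells, each also amplified singly, the spread of the same genes was smaller. Over the 425 abundant genes that also had a median of 100 FPM in stele cells, the median SD was 2.95 in single QC cells (2.74 within sets), 0.59 in the 3 stele cells at 0 h and 0.75 in the 4 at 16 h, against 0.56 in the aliquots. Over all 621 abundant genes it was 0.78 and 0.91 in stele cells at 0 h and 16 h, near the 0.92 of QC cells 15 to 18. Stele libraries also had more genes above 0, at 11316 to 13452 against 4646 to 11035 in single QC cells. The part of library quality in this contrast was not tested.

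The cells differed in how many abundant genes lay near the aliquots. The number of the 621 genes within 4-fold of the aliquot median ran from 206 in QC cell 4 to 491 in QC cell 16, with 228 in QC cell 10 and 232 in QC cell 3. Each aliquot, set against the other 3, had 564 to 576. QC cells 14, 19 and 20, whose read totals were as large as those of the aliquots, had 329, 438 and 306. Among the 20 cells the number of abundant genes under 1% of the aliquot median ran from 4 in QC cell 18 to 262 in QC cell 4, against 1 to 8 in the aliquots. QC cells 14, 19 and 20 had 95, 63 and 178 such genes.

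**Figure D2:**
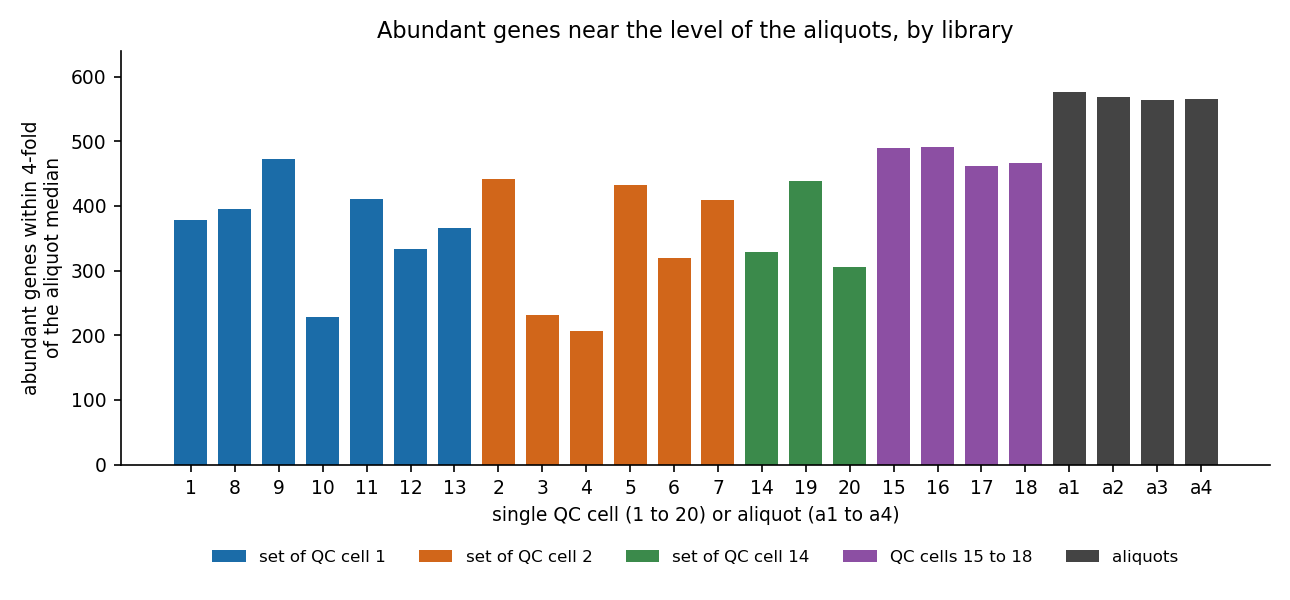
Number of the 621 abundant genes within 4-fold of the aliquot median in each single QC cell, ordered by set, and in each aliquot set against the other 3. Bars start at 0. QC cells 3, 4 and 10 have 206 to 232 genes and the aliquots 564 to 576.

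Only 8 abundant genes (1.29%) were steady in both groups. By the gene lists, 1 of 25 abundant ribosomal proteins, 0 of 15 translation factors, 2 of 15 polyubiquitin and proteasome genes and 1 of 6 histones were among them. They were *TCTP* (AT3G16640), the translationally controlled tumor protein, which promotes growth; *UBC9* (AT4G27960), *UBC10* (AT5G53300) and *UBC28* (AT1G64230), ubiquitin-conjugating enzymes of 1 subfamily; *UBQ11* (AT4G05050) and *UBQ13* (AT1G65350), polyubiquitins; *RPL10B* (AT1G26910), a protein of the large ribosomal subunit; and AT4G40040, a histone of the H3.3 type. In all 8 the SD, both in cells and in aliquots, chose the gene and is given only as a description.

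*TCTP* was the steadiest, with an SD of 0.66 in single QC cells and 0.05 in aliquots. Its lowest, median and highest values were 1342, 3685 and 8277 FPM in the cells, against 4238, 4073, 3882 and 4063 FPM in aliquots 1 to 4. The aliquots lay in the middle of the cells. *UBC10* had 507, 1763 and 3149.6 FPM in the cells and 1464, 944, 1196 and 1152 FPM in the aliquots, and its low cells were the pair of QC cells 17 and 18 (507 and 523 FPM). For *UBC9* the values were 92.2, 285 and 489 FPM in the cells and 235, 178, 273 and 260.3 FPM in the aliquots. For *UBC28* they were 119, 302 and 802 FPM in the cells and 408, 441, 392 and 397 FPM in the aliquots. All 20 cells were within 4-fold of the aliquot median for each of these 4 genes and for *UBQ11*.

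The other genes steady in both spread a little more. *RPL10B* was at 89.9, 396 and 913 FPM in the cells and 821, 691, 861 and 819 FPM in the aliquots, and 5 cells lay more than 4-fold below the aliquot median. AT4G40040 had 229, 851 and 2733 FPM in the cells and 871, 561, 454 and 601 FPM in the aliquots, with 2 cells more than 4-fold above. *UBQ11* had 733, 3751 and 7011 FPM in the cells and 4014, 2837, 2677 and 2971 FPM in the aliquots, whereas *UBQ13*, at 84.3, 348 and 1146 FPM in the cells and 563, 546, 343 and 475 FPM in the aliquots, sat closest to the threshold in the cells, with an SD of 0.98. The next gene, just outside it, had an SD of 1.01. Reads of *UBQ11*, *UBQ13* and *RPL10B* may be divided with near-identical copies, since 48.9%, 65.3% and 23.2% of their 50-base windows held 26 bases that are also found at another locus, and their values are uncertain. The other 5 genes shared under 10% of their windows. The same caution holds for *PRIN2* (20.2%), *BRU6* (29.8%), AT4G33930 (43.8%), *UBQ10* (55.2%), *HSC70-1* (15.0%), *BGLU15* (13.1%) and *GSTF8* (10.6%), which are described further on.

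The set of 8 rested on scaling by the library total and on a few cells. When libraries were scaled by the median ratio over the 1782 genes above 0 in all 24, no gene was steady in both, and the SD of *TCTP* in the cells was 1.83. The scaling factors of QC cells 3, 4 and 10 were -3.45, -4.39 and -3.19 in log2, against 1.08 to 1.29 in the aliquots. With both that scaling and those 3 cells left out, 12 genes were steady in both, 3 of them among the 8 (*RPL10B*, *UBQ11* and *UBQ13*). By library total and without the 3 cells, all 8 remained and 9 more joined, 4 of them loci of the elongation factor EF1A (AT1G07920, AT1G07930, AT1G07940 and AT5G60390). The first 3 of these loci shared 75.6%, 72.8% and 56.9% of their windows with other loci, so that they may not be separate signals.

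**Figure D3:**
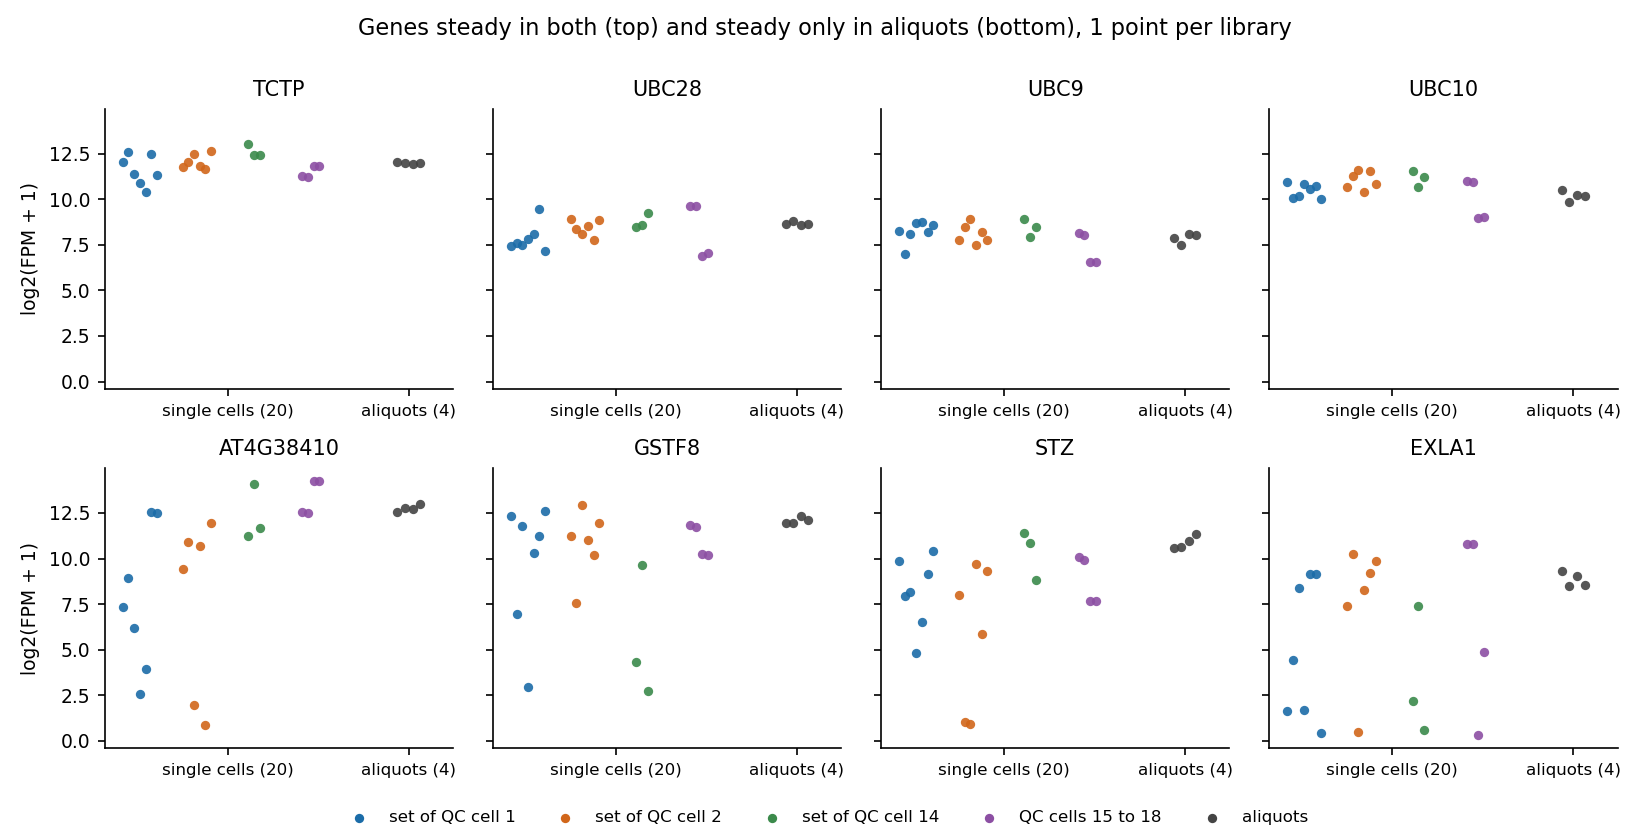
Log2(FPM + 1) of 4 genes steady in both groups (top) and 4 genes steady in aliquots but varying between cells (bottom), 1 point per library, with the 20 single QC cells on the left coloured by set and the 4 aliquots on the right. In the top panels the cells spread around the aliquots by less than in the bottom panels, where *GSTF8* has an SD of 3.13 in the cells and 0.18 in the aliquots.

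A much larger group, 193 abundant genes (31.1%), was steady in aliquots and varied between single QC cells. Of the 243 genes steady in aliquots, these were 193, a further 42 had an SD between 1 and 2 in the cells, and 8 were the genes above. Of the 193, 185 were above 0 in all 20 cells and 177 had an SD of 2 or more within sets. Without QC cells 3, 4 and 10, 169 of the 193 still had an SD of 2 or more. The genes just inside and just outside the threshold in the cells had SDs of 2.05 and 1.98.

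Typically a member was near the aliquots in most cells and nearly gone in a few. At the median over the 193 genes, 12 of the 20 cells were within 4-fold of the aliquot median, 7 were lower by more than that, and 3 were under 1% of it. Over all 621 abundant genes these medians were 12, 6 and 2 cells, so that the pattern is not particular to the 193. The thresholds on the median and on the SD also favour such a pattern. In 185 of the genes at least 1 cell was under 1% of the aliquot median. High cells were rarer, and 67 genes had a cell at least 4-fold above the aliquot median. Such low values were spread over the cells unequally, from 1 of the 193 genes under 1% in QC cell 18 to 86 in QC cell 4, with 79 in QC cell 20 and 75 in QC cell 10.

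Members with the largest gaps between SDs encode enzymes, a dehydrin and less well known proteins. *SK1* (AT2G21940), a shikimate kinase on the way to aromatic amino acids, had the largest gap, and it followed the sets. It was at 352, 331, 254 and 396 FPM in the aliquots, at 0 in QC cells 2 to 7 and 15 to 18, and at 379.9 to 2274 FPM in the other 10 cells. Its SD was 5.13 over all cells in contrast to 0.33 within sets, so that nearly all of the spread lay between sets. *PRIN2* (AT1G10522), a plastid protein, was likewise at 0 in QC cells 2 to 7, 15 and 16, and at 209.9, 239.9, 294 and 312 FPM in the aliquots. For *SK1*, cell and set cannot be told apart. *PRIN2* had an SD of 2.28 within sets, with 179.6 to 1737 FPM in the set of QC cell 1.

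AT4G38410, a dehydrin (a family that protects cells during water loss), varied within sets too. Its lowest, median and highest values were 0.815, 2138 and 19829 FPM in single QC cells, against 6017, 7070.1, 6856 and 8035 FPM in aliquots 1 to 4. QC cells 4, 6 and 10 had under 5 FPM (2.92, 0.815 and 4.89), while QC cells 17, 18 and 19 exceeded every aliquot. AT3G44190, annotated as an FAD/NAD(P)-binding oxidoreductase, had 0.427, 781 and 6271 FPM in the cells and 3468, 3311, 3930.3 and 4436 FPM in the aliquots. AT3G05500, annotated as a rubber elongation factor protein, had 0.122, 131 and 3302 FPM in the cells and 711, 696, 809 and 1375 FPM in the aliquots. In both genes the highest cell lay above the highest aliquot and the lowest cells were under 1 FPM.

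Genes of hormone response were also in this group. *BRU6* (AT4G37390) and *GH3.1* (AT2G14960) encode GH3 enzymes, which join auxin to amino acids and are themselves induced by auxin. *BRU6* ran from 0.669 FPM in QC cell 14 to 7594 FPM in QC cell 11, with a median of 377 FPM in the cells, against 1261, 916, 1342 and 977 FPM in the aliquots. *GH3.1* had 0.122, 151 and 1993 FPM in the cells and 922, 1003, 819.8 and 656 FPM in the aliquots, and its highest cells were the pair 15 and 16. *WRKY23* (AT2G47260), a transcription factor in auxin response, had 0.321, 162 and 1413 FPM in the cells and 567, 488, 561 and 636 FPM in the aliquots. It was under 1 FPM in all 3 cells of the set of QC cell 14 and in QC cells 3, 4 and 17.

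In the next members the low cells included a whole set. AT3G15450, annotated as an aluminum-induced protein, was at 0.791, 1.13 and 8.47 FPM in QC cells 14, 19 and 20 and at 662 to 19587 FPM in the other 17 cells, against 2014.6, 1507, 2169 and 1781 FPM in the aliquots. Its SD was 1.37 within sets. *BT5* (AT4G37610), a BTB and TAZ domain protein, was under 1 FPM in the same 3 cells, but also at 2.50, 5.05 and 3.09 FPM in QC cells 8, 10 and 12, against 979, 708, 447 and 783 FPM in the aliquots.

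By function, abundant glutathione transferases were all steady in the aliquots. These enzymes join glutathione to reactive compounds, and plants induce many of them under stress. All 9 met the threshold, where 243 of all 621 abundant genes did. Of the 9, 6 varied between cells, where 193 of the 243 genes steady in aliquots did, so that varying was no more frequent among the 9. The median aliquot SD of the list was 0.25, beside 0.26 over the 78 genes at 1000 FPM or more. The part of level in this steadiness was not tested. *GSTF8* (AT2G47730) had 5.66, 1668 and 7788 FPM in single QC cells and 3981, 4017, 5186 and 4408 FPM in aliquots, with SDs of 3.13 in the cells and 0.18 in the aliquots. *GSTU24* (AT1G17170) had 17.6, 967 and 3974 FPM in the cells and 3393, 2548, 2601 and 2435 FPM in the aliquots. *GSTU19* (AT1G78380), the most abundant member, was steadier, at 1203, 4002 and 10938 FPM in the cells with an SD of 1.12, against 10963, 11382, 12658 and 13751 FPM in the aliquots, and every cell lay below every aliquot.

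Wall proteins and transcription factors had few abundant members, so that their counts say little beside the 31.1% of all abundant genes. Of 5 abundant wall proteins, 3 were in the group, among them the arabinogalactan proteins *AGP1* (AT5G64310) and *AGP15* (AT5G11740), which are anchored at the cell surface. *AGP15* had 0.414, 237 and 4292 FPM in the cells and 4496, 3556, 3968 and 3549 FPM in the aliquots. The ERF list, named from product names, had 6 abundant genes, of which *PLT1* and *BBM* are regulators of the root stem cell niche and were not members. The other 4 were, including *RAP2.4* (AT1G78080), with 0.355, 177 and 1012 FPM in the cells and 1118, 1068, 1299 and 1154 FPM in the aliquots. The zinc finger repressors *STZ* (AT1G27730) and *RHL41* (AT5G59820), known to be induced by cold, wounding and other stresses, were members as well. *STZ* had 0.899, 371 and 2659 FPM in the cells and 1533, 1586, 2030.3 and 2622 FPM in the aliquots, and *RHL41* had 1.87, 1127 and 3678 FPM in the cells and 2167, 3347, 2529 and 2458 FPM in the aliquots. Of the 4 abundant WRKY factors, 3 were members, against 0 of 2 MYB factors and 0 of 1 Aux/IAA protein.

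For central functions the shares over all abundant genes are 39.1% steady in aliquots and 31.1% also varying. Of 25 abundant ribosomal proteins, 12 were steady in aliquots, 9 varied between cells and 1 was steady in both. Of 15 abundant translation factors, 10 were steady in aliquots but only 3 varied. AT1G07920, an EF1A locus with an SD of 1.34 in the cells, had 87.4, 2634 and 8111 FPM there and 1970.0, 2212, 1290.0 and 2351 FPM in the aliquots, although 75.6% of its windows were shared with other loci. Of 15 abundant polyubiquitin and proteasome genes, 8 were steady in aliquots, 1 varied and 2 were steady in both. *UBQ10* (AT4G05320), the most abundant, had 1514, 8644 and 17254 FPM in the cells and 7639, 7233, 6359.6 and 6413 FPM in the aliquots, with an SD of 1.01 in the cells, just above the threshold. Among 8 abundant enzymes of glycolysis, 3 were steady in aliquots and all 3 varied. Ribosomal proteins and glycolysis thus lay near the shares over all genes. Members of a list may share reads and are then not separate counts. At least 10% of windows were shared in 16 of the 25 ribosomal proteins and 11 of the 15 translation factors. The same held for 9 of the 15 polyubiquitin and proteasome genes, beside 28.8% of all abundant genes. The triose phosphate isomerase *TPI* (AT3G55440) had 0.652, 595 and 3569 FPM in the cells and 2362, 1919, 2541 and 2726 FPM in the aliquots. None of the 6 abundant histones was in the group, and their median SD in the cells was the lowest of the lists with at least 3 abundant members (1.81, against 0.59 in aliquots). This order held only over all cells by library total. Within sets it was 1.56 for histones and 1.28 for polyubiquitin and proteasome genes, and with the median ratio it was 2.32 for histones and 2.00 for both translation factors and polyubiquitin and proteasome genes.

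**Figure D4:**
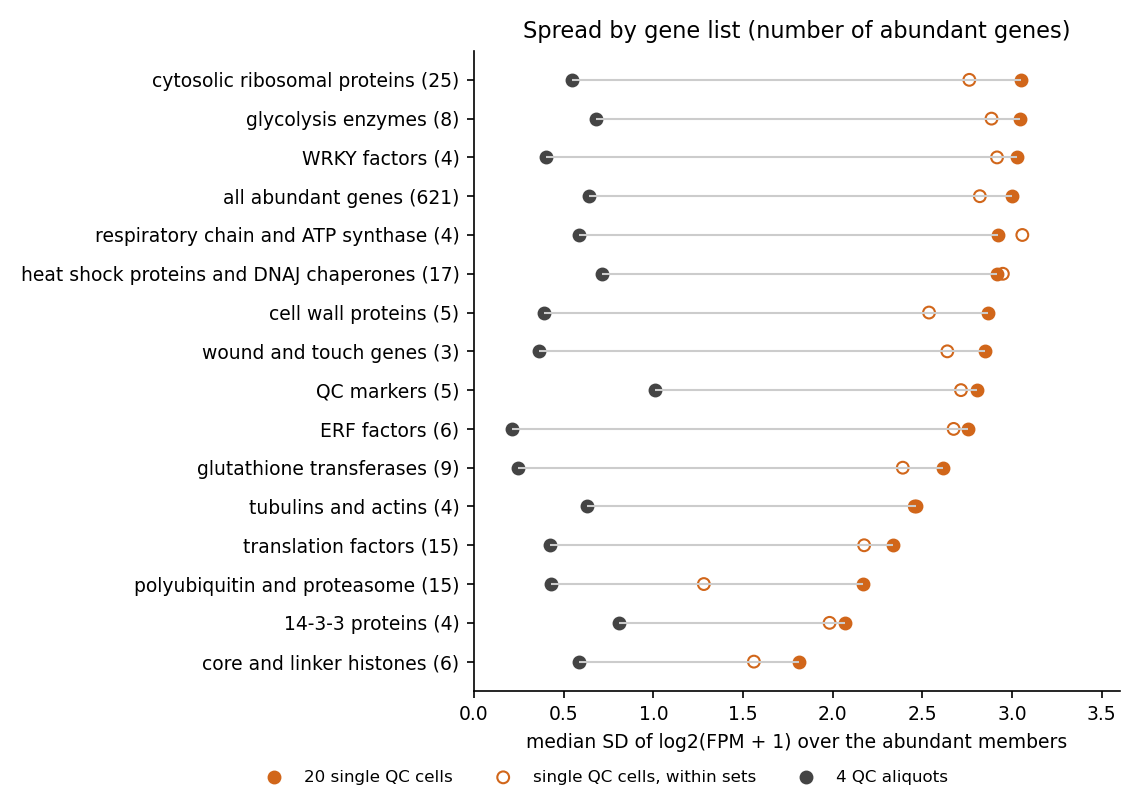
Median SD of log2(FPM + 1) over the abundant members of each gene list with at least 3 such members, in the 20 single QC cells (filled orange), within sets of cells (open orange) and in the 4 aliquots (grey), with the number of genes in brackets. The SD in the cells is the larger in every list, and over all 20 cells it is lowest for histones, at 1.81, whereas within sets it is lowest for polyubiquitin and proteasome genes, at 1.28.

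The regulators of QC identity were not among the steady genes, apart from *WOX5* in the aliquots. *WOX5* had an SD of 1.12 in the cells and 0.30 in the aliquots. *PLT1* (AT3G20840) had 0.674, 382 and 1473 FPM in the cells and 526, 461, 187 and 382 FPM in the aliquots, and *BBM* (AT5G17430) had 2.13, 362 and 1072 FPM in the cells and 477, 120.4, 276 and 578 FPM in the aliquots. Their medians were close in both groups, and 14 and 17 of the 20 cells lay within 4-fold of the aliquot median. *PLT2* (AT1G51190), less abundant, had 0.142, 55.1 and 1177 FPM in the cells and 180.2, 46.3, 87.6 and 403 FPM in the aliquots. *SCR* (AT3G54220), required for QC specification, differed more, with 0.106, 30.3 and 1918 FPM in the cells and 1109.8, 529.6, 365 and 966 FPM in the aliquots. It was under 1 FPM in 8 cells, 5 of them in the set of QC cell 1, and its SD in the cells was 4.05, against 0.75 in the aliquots.

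Group medians differed mostly in 1 direction. Of the 1939 genes with a median of 100 FPM or more in either group, 58 (2.99%) were at least 4-fold higher in the median of single QC cells and 988 (51.0%) at least 4-fold lower. The median difference over the 1939 genes was -2.08 in log2(FPM + 1), cells minus aliquots, whereas over the 621 genes abundant in both it was -0.35. The number of genes that reached the level also differed, at 748 in the cells and 1812 in the aliquots. Of the 988 lower genes, 383 had a median of 1 FPM or less in the cells, so that the size of their difference depends on the pseudocount.

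The median of a group of single cells and that of aliquots are not the same kind of value, because an aliquot is already a mean over 4 cells. Means of FPM gave another balance. Over the same 1939 genes, 81 (4.18%) were at least 4-fold higher by means in single QC cells and 229 (11.8%) at least 4-fold lower, and the median difference was -0.37, still below 0. When means also chose the genes, the gene set grew and the sign turned. Of 2972 genes with a mean of 100 FPM or more in either group, 441 (14.8%) were at least 4-fold higher in single QC cells and 257 (8.65%) at least 4-fold lower, and the median difference was 0.19. Of the 988 genes lower by medians, 229 were also at least 4-fold lower by means, and of the 58 higher by medians, 49 were higher by means. Another scaling moved the counts too. With the median ratio over genes above 0 in every library, 103 genes were higher and 245 lower, so that 29.6% of these differences were higher. These counts are over genes chosen anew at 100 FPM after the scaling, whose median difference was -0.05, close to none. Over the same 1939 genes the median difference shifted by 0.87 in log2, to -1.21. Of the 988 genes, 933 reached the lowest aliquot in at least 1 cell, and 649 were above 0 in the first cell of every set.

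**Figure D5:**
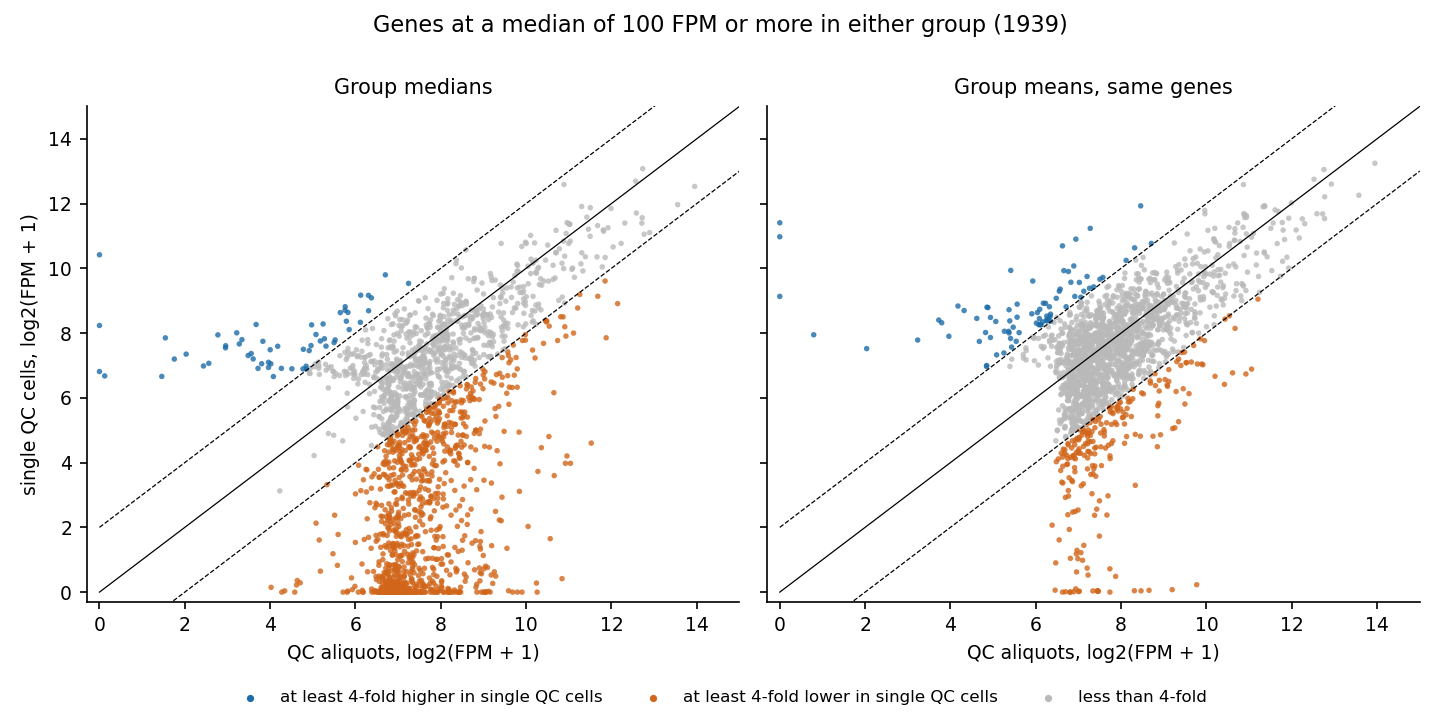
Log2(FPM + 1) of single QC cells (vertical axis) against aliquots (horizontal axis) for the 1939 genes with a median of 100 FPM or more in either group, by group medians (left) and by group means (right). Dashed lines mark 4-fold. By medians 58 genes lie above the band and 988 below it.

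Genes higher in the median of single QC cells were low and unsteady in the aliquots, and their functions were mixed. The 58 genes had a median SD of 3.44 in the cells and 2.13 in the aliquots, and 5 of them were steady in aliquots. The largest difference was that of AT2G25760, annotated as a protein kinase, with 0.0299, 146 and 611 FPM in the cells and 1.12, 6.47, 4.37 and 0.444 FPM in the aliquots. *DHS2* (AT4G33510), an enzyme at the entry of the shikimate pathway, had 0.244, 164 and 953 FPM in the cells and 5.81, 1.46, 0.0939 and 26.2 FPM in the aliquots. *SKD1* (AT2G27600), an AAA-type ATPase of endosomal sorting, had 0.0641, 255 and 1457 FPM in the cells and 6.46, 38.3, 1.52 and 5.28 FPM in the aliquots. In each of the 3 genes the groups overlapped, since the lowest single cells lay below the highest aliquot.

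The other 5 were *PAHX*, *CAT2*, *HUA2*, *MAB1* and *BZIP28*. *CAT2* (AT1G58030), an amino acid transporter, had 0.532, 186 and 1236 FPM in the cells and 26.6, 0.0358, 1.79 and 20.5 FPM in the aliquots. *BZIP28* (AT3G10800), a membrane-bound factor of the endoplasmic reticulum stress response, had 0.0214, 202 and 980.2 FPM in the cells and 67.03, 0.382, 106 and 0.0647 FPM in the aliquots, so that the aliquots were themselves split between high values and values near 0. For *PAHX* (AT2G01490), *HUA2* (AT5G23150) and *MAB1* (AT5G50850) a single aliquot was far above the other 3, at 331, 105 and 131 FPM. No gene was higher in every single QC cell than in every aliquot.

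Genes lower in the median of single QC cells included genes of touch and wounding. *TCH3* (AT2G41100), a calmodulin-like protein whose RNA rises on touch, was the clearest. It was listed at 0 in 15 single QC cells and at no more than 1.84 FPM in the other 5, against 615, 1091, 994 and 794 FPM in aliquots 1 to 4. Every cell lay below every aliquot, in each set, although 29.1% of its windows are shared with other loci. *CML37* (AT5G42380), another calmodulin-like protein, was at 0 in 12 cells and reached 693 FPM in QC cell 14, against 1042, 1140.5, 1990.4 and 1314 FPM in the aliquots. *BGLU15* (AT2G44450), a beta-glucosidase, had 0, 0.218 and 577 FPM in the cells and 1079.6, 1413, 1357 and 855 FPM in the aliquots.

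The remaining 5 of the largest differences were high in some cells. *GSTF9* (AT2G30860), a glutathione transferase of the phi class, had a median of 0.334 FPM in the cells, but 21528, 3590.3 and 26401 FPM in QC cells 14, 19 and 20 and 2186 FPM in QC cell 3, against 1833, 1836, 1231 and 1902 FPM in the aliquots. By group means it was therefore higher in the cells, by 0.67 in log2. AT5G22580, annotated as a stress-responsive barrel protein, and *GH9C2* (AT1G64390), a glycosyl hydrolase of the wall, were listed at 0 in all 13 cells of the sets of QC cells 1 and 2. Their values in the aliquots were 879, 1167, 1042 and 443 FPM and 305, 629.5, 516 and 766 FPM, and QC cells 15 to 19 had up to 773 and 536 FPM. AT4G33930 was also at 0 in those 13 cells, whereas AT5G55180 was above 0 in 4 of them. Their cells had up to 592 and 413 FPM, against 833, 913, 810.3 and 528 FPM and 362, 955, 929.7 and 637 FPM in the aliquots.

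In 58 of the 1939 genes (2.99%) every single QC cell lay below every aliquot, and 31 of them were listed at 0 throughout the 13 cells that belong with QC cell 1 or 2. The 10 that were above 0 in all 20 cells were thus not missing from any set. Besides *GSTU19* and *RAP2.4* these included *GSTU25* (AT1G17180), with 6.30, 104 and 329 FPM in the cells and 558, 634 and 873 FPM in the aliquots (lowest, median and highest), and the glucosyltransferases *UGT73B2* (AT4G34135) and *UGT73B4* (AT2G15490), which attach sugar to flavonoids and other small molecules. *UGT73B4* had 409.8, 3023 and 5379 FPM in the cells and 6563, 6753 and 7852 FPM in the aliquots. *UGT73B2* had 3.75, 1058 and 3467 FPM in the cells and 3476, 3526 and 3572 FPM in the aliquots, which barely separates the groups. The last 3 were picked once their values were known.

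Across the list of 24 genes of mechanical and wound response, 14 were abundant in either group. Of these, 12 were at least 4-fold lower in the median of the cells, where 51.0% of all 1939 genes were. Only 3 of the 14 were abundant in both groups, with a median difference of -1.14, beside -0.35 over all 621. Most of the 12 thus passed the level through the aliquots alone, which favours this direction. By group means the median difference over the 14 was -1.50, beside -0.37 over all 1939 genes. The sum of the list had a median of 3791 FPM in the cells (318 to 16976) and 12057 FPM in the aliquots (10623 to 12622). QC cell 13 and the nearly alike pair of QC cells 15 and 16 were above all aliquots, at 15223, 16976 and 16904 FPM. The other 17 cells were below all of them. The jasmonate synthesis gene *AOC3* (AT3G25780) had a median of 17.5 FPM in the cells (0 to 2965) and 1988 FPM in the aliquots (1141 to 2150.0). The transcription factor *WRKY40* (AT1G80840) had 13.3 FPM in the cells (0 to 3197) and 1256 FPM in the aliquots (829.7 to 1464). Both reached the level of the aliquots in some cells.

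Ribosomal proteins were lower in the median of the cells but not in all sets. Of 101 ribosomal proteins abundant in either group, 72 were at least 4-fold lower in single QC cells and none was 4-fold higher. Over all 1939 genes the shares were 51.0% lower and 2.99% higher. Only 25 of the 101 were abundant in both groups, with a median difference of -1.29, beside -0.35 over all 621. Most of the 72 thus passed the level through the aliquots alone, which favours this direction. The summed level of the list was 76062, 72289.6 and 80773 FPM in QC cells 14, 19 and 20. It was 7012 to 34732 FPM in the other 17 cells, against 40725 to 46644 FPM in the aliquots. The cells of the set of QC cell 14 were thus above the aliquots and every other cell below them. Read totals were also high in that set (93606126 to 115114702), and their part in the result was not tested.

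The median difference of the ribosomal list was -3.03 by medians, -2.40 with scaling by the median ratio and -0.94 by group means, beside -2.08, -1.21 and -0.37 over all 1939 genes. Wall proteins (-5.82 by medians and -4.70 by the median ratio, over 14 genes) and glutathione transferases (-2.04 by medians and -0.80 by the median ratio, over 18 genes) also kept their sign. Over members abundant in both groups the differences by medians were -1.44 for 5 wall proteins and -1.41 for 9 glutathione transferases. Over all 621 such genes it was -0.35. The glutathione transferases lay near all 1939 genes, with 9 of the 18 at least 4-fold lower, beside 51.0%. Over the genes abundant in either group their difference is thus not particular to that list. The signs of translation factors (-0.53 by medians and 0.27 by the median ratio), of polyubiquitin and proteasome genes (-0.79 and 0.23) and of heat shock proteins (-0.83 and 0.16) turned with the scaling. No direction is given for them.

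Heat shock proteins showed instead a contrast among the cells. The summed level of the 213 heat shock proteins and DNAJ chaperones was 138726 FPM in QC cell 5, 121970 FPM in QC cell 12, 85556 FPM in QC cell 13, 82168 FPM in QC cell 7 and 72728 FPM in QC cell 3. In the other 15 cells it was 10749 to 27224 FPM, a range that holds all 4 aliquots (14333 to 18803 FPM). The 5 high cells belong to 2 sets, and both sets also hold low cells.

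The leading genes of QC cell 5 were heat-inducible chaperones. *HSP70* (AT3G12580), a cytosolic chaperone that refolds proteins, had a median of 1225 FPM in the cells (0.769 to 28751) and 329.6 FPM in the aliquots (133 to 611). *HSP90.1* (AT5G52640) had 287 FPM in the cells (4.46 to 17004) and 103 FPM in the aliquots (55.9 to 354). For *HSP101* (AT1G74310), which dissolves protein aggregates, the values were 139 FPM in the cells (0 to 12635) and 83.7 FPM in the aliquots (63.9 to 255.6). The constitutive *HSC70-1* (AT5G02500) moved less, at 383, 1681 and 8639 FPM in the cells and 2042, 1427, 1480.5 and 960.2 FPM in the aliquots, and 19 of the 20 cells lay within 4-fold of the aliquot median. Other abundant HSP70 genes ranged more widely. *Hsp70-2* (AT5G02490) was at 164 to 12069 FPM in the cells and AT3G09440 at 51.8 to 13398 FPM. For them 14 and 10 of the 20 cells lay within 4-fold of the aliquot median, and 25.1% and 24.5% of their windows were shared.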

How the data were processed

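RNA was measured in 31 libraries by amplification of cDNA from picked cells and sequencing of 50-base single reads, and 24 of these libraries are compared here. The authors aligned reads with Bowtie2 to TAIR10 and divided a read with several matches among them. They removed genes with low coverage, and such genes may be the ones listed at 0. They deposited 1 table of log2 values for 32678 loci and 2 reporters, which the methods call normalized to depth. The log2 was undone, 1 was subtracted, and each library was divided by a step fitted to its own lowest values. All values under 1000 then came out whole (within 0.05) and totals differed between libraries. They were therefore read as counts and depth is taken from them, although the methods describe partial counts for reads with several matches. Libraries were grouped by their labels. The log2 was undone, CFP and GFP were left out, and each library was scaled to 1000000 (FPM). SDs were taken over log2(FPM + 1) with a pseudocount of 1.

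Depth was 12071810 to 115114702 reads in single QC cells and 83718007 to 127775758 in aliquots, which makes counting error small for a gene at 100 FPM, but reads of amplified cDNA are not independent molecules. The spread within sets was taken around the mean of each set. Since each group is 1 sample, no p-value was computed. Fixed rules gave the named genes: 5 QC regulators, the 8 largest gaps between the SDs of cells and aliquots among genes steady in aliquots and varying (and the 8 largest among those above 0 in all 24 libraries), up to 10 genes steady in both, the 8 largest differences of medians in each direction among genes above 0 in every library of the higher group, and the 3 most abundant members of each gene list. Genes named outside the rules were chosen after their values were seen. The groups, thresholds and gene lists were chosen with earlier results of these data known. Gene lists came from RefSeq product names and from the marker table of the study. A 50-base window was called shared where it held 26 bases also found at another locus.

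Alternatives were other pseudocounts (0.1 and 10 FPM), levels (50 and 500 FPM, or none) and folds (8), another scaling, thinning to the lowest total, another measure of spread, and leaving out sets, cells or aliquots. Group means, genes with few shared windows and leaving out QC cells 3, 4 and 10 were added after seeing the data. The calculation was run on simulated libraries, drawn from the mean profile of the aliquots with planted changes and counting error only. Loss of transcripts, amplification and the sets of cells were not simulated, so that this run cannot speak to them. Calculations used Python 3.11.15 with pandas 2.3.3, numpy 2.4.6 and scipy 1.17.1, and plots matplotlib 3.10.9.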

Additional observations from a re-analysis of the deposited data

Results flagged for a closer look

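Over the 4 aliquots, 84 named genes and 5 properties of the libraries were tested for a library far from the others, and 6 of the 89 values passed Dixon's critical value for 4 samples. Chance flags about 1 in 20. *GSTF9*, the glutathione transferase, was at 1231 FPM in aliquot 3 and at 1833 to 1902 FPM in the other 3. AT1G07930, an EF1A locus with near-identical copies, was at 1202 FPM in aliquot 3 and at 2054 to 2199.6 FPM in the others. *ACT7*, an actin, was at 126 FPM in aliquot 4 and at 388 to 429 FPM in the others. AT1G22190, an ERF factor, was at 1483 FPM in aliquot 2 and at 1134 to 1156 FPM in the others. Aliquot 1, in which the other 3 are nested, had 11096 genes above 0, and the others had 9770 to 9929. Aliquot 3 had 2272 genes at 100 FPM or more, and the others had 2345 to 2357. Aliquot 3 was the far library in 3 of the 6.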

How the results depend on the processing

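Of 174 counts, shares and medians over genes, 136 stayed the same. This means within 1.5 times the value given above, or for the share within its 95% interval (96.7% to 98.9%). For named genes a value stayed the same where it moved by less than the smaller SD of the 2 groups. Of 1344 gaps between SDs 1095 did so, and of 1344 differences of medians 1025. The SD was larger in single QC cells for most abundant genes in every setting run. At 50 FPM there were 1016 abundant genes, 94 higher and 1896 lower. At 500 FPM there were 113, with a share of 100%, an aliquot SD of 0.33, 56 steady in aliquots and varying, 4 steady in both, 6 higher and 100 lower. With no filter there were 5474, with a share of 82.9%, an aliquot SD of 1.82, 489 steady in aliquots and varying, 216 higher and 4887 lower. Scaling by the median ratio gave 400 abundant genes, a share of 99.5%, 0 steady in both, 103 higher and 245 lower, and with QC cells 3, 4 and 10 also left out 161 higher and 351 lower. Genes steady in both numbered 39 by the median absolute deviation, 18 by the SD within sets, 5 under 10% shared windows, 14, 17 and 16 without the set of QC cell 1, 2 or 14, and 17 without QC cells 3, 4 and 10. Thresholds at quartiles gave 28 steady in aliquots and varying and 54 steady in both. Higher genes numbered 103 and 89 without the set of QC cell 2 or 14 and 32 at 8-fold. Lower genes numbered 649 among those above 0 in QC cells 1, 2 and 14. Group means, which also choose other genes, gave 441 higher and 257 lower, so that 63.2% of the 4-fold differences were higher in the cells, against 5.54% by medians and 29.6% by the median ratio.

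Leaving out each aliquot gave 598 to 601 abundant genes, a share of 97.7% to 98.3%, median SDs of 2.99 to 3.00 in cells and 0.55 to 0.58 in aliquots, 211 to 223 steady in aliquots and varying, 8 to 8 steady in both, 56 to 66 higher and 1093 to 1155 lower. The difference of medians of *SK1*, -4.13 above, turned positive with the pairs averaged (0.36), without the set of QC cell 2 (1.06), without QC cells 15 to 18 (0.66), by group means (0.75), without QC cells 3, 4 and 10 (0.15) and with the median ratio and without those cells (1.63). That of *GSTF9* was 0.67 by group means. No paired analysis was possible because a cell and an aliquot with the same number share nothing else by the labels, and no test was made. The cause of these changes was not tested. A value near 0 in a single cell cannot be told apart from transcripts lost before amplification.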

Other observations

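Other gene families had wide ranges over the cells, of which the extremes are given. The 14-3-3 proteins, regulators that bind phosphorylated partners, summed to 9193 FPM in QC cell 4, led by *GRF6* at 5731 FPM, and to 327 FPM in QC cell 3, against a median of 1515 FPM in the aliquots. Aquaporins, the water channels of membranes, summed to 4158 FPM in QC cell 3, where *PIP1;4* and *PIP1C* had 2228 and 1863 FPM, and to 2.04 FPM in QC cell 15, against a median of 1417 FPM in the aliquots. Class III peroxidases had a median sum of 0.641 FPM in the cells, against 149 FPM in the aliquots (19.5 to 299.5), but reached 1287 FPM in QC cell 4 (nearly all from AT5G39580), 332 FPM in QC cell 14, 254 FPM in QC cell 6, 225 FPM in QC cell 19 and 121 FPM in QC cell 2. Tubulins and actins summed to 35.6 FPM in QC cell 3 and to 8901, 8885 and 9338 FPM in QC cells 14, 19 and 20, against a median of 5767 FPM in the aliquots. Aux/IAA proteins, repressors of auxin response, were at 3.67 FPM in QC cell 4 and above every aliquot in 7 cells, up to 3039 FPM in QC cell 20, against a median of 1241 FPM in the aliquots. QC cells 3 and 4 are among those that stood apart.

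Promoters were searched on both strands, from 250 bases before to 50 after each gene start, for the telo-box (AAACCCTA) and site II (TGGGCC), elements known from genes of ribosomal proteins and cell growth. The telo-box was in 2 of the 8 genes steady in both and in 6.77% of the 192 steady in aliquots and varying that have a promoter, beside 6.97% of abundant genes and 6.24% of all 31911 promoters. Site II was in 3 of the 8, in 17.7% of the 192, in 21.6% of abundant genes and in 14.1% of all promoters. These are matches of letters only.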
